A study of Mus musculus with 8 samples.

Results

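The Clec genes of mouse are named for the C-type lectin fold, a domain through which many immune receptors bind sugars, lipids or proteins. Rows of the expression table were taken where the gene symbol begins with Clec, then a number, then a letter, which gave 31 of the table's 32098 genes. RNA had been measured by RNA sequencing of whole tumours of 4T1, a mouse mammary carcinoma cell line, all labelled as wild type. In 4 tumours an immune checkpoint inhibitor was given alone (ICI, numbered 1, 2, 3 and 4), and in 4 it was given together with radiation (RI, numbered 1, 2, 4 and 5). There was no untreated group, so every value here is from a tumour under the inhibitor. The labels do not say which inhibitor and radiation dose were used, whether an RI tumour lay in the irradiated field, and whether each tumour came from its own animal, so the p-values below rest on sample-to-sample spread that may in part be technical. The series' design text counts 3 replicates per group and 4 are listed.

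Many of these proteins sit on monocytes, macrophages, dendritic cells and neutrophils and sort into opposing classes. Activating receptors such as Clec7a (Dectin-1), Clec4n (Dectin-2) and Clec4e (Mincle) signal through the kinase Syk and the adaptor Card9, often by way of the adaptor chains Fcer1g or Tyrobp, and drive cytokine genes. Inhibitory receptors such as Clec4a2 and Clec12a recruit phosphatases that restrain that signal. Others are known from dendritic cells (Clec9a), endothelium (Clec14a), platelets (Clec1b) or connective tissue, where Clec3b and Clec11a are secreted.

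The genes are packed on the chromosome. On the assembly GRCm38, 24 of the 31 lie on chromosome 6, and 21 of these fall into a pair of groups. The first group spans 0.368 Mb (chr6:122921848-123289870) and holds 9 genes, among them Clec4a1, Clec4a3, Clec4a2, Clec4n, Clec4d and Clec4e. The second spans 0.81 Mb (chr6:128662385-129472779) and holds 12, among them Clec2d, Clec12a, Clec12b, Clec1b, Clec9a, Clec1a and Clec7a. Several Clec4a, Clec4b and Clec2 genes are close copies of one another, so a single value is uncertain if the counting let them share fragments. The promoter windows below, from RefSeq on GRCm38.p6, belong to Clec4e, whose ratio to Clec4n differed between the groups, and its neighbour and partner Clec4d, and to 3 of the neighbours that were high in ICI 1 (Clec12b, Clec1b and Clec9a). Each runs 5′ to 3′ on the strand of its gene and covers 300 bases around the annotated start, and capitals mark matches, on either strand, to GAGGAA (the core bound by the myeloid factor PU.1), TTGCNNAA (bound by C/EBP factors) or AGATAA (bound by GATA factors).
Clec4d, chr6:123261857-123262156, plus strand: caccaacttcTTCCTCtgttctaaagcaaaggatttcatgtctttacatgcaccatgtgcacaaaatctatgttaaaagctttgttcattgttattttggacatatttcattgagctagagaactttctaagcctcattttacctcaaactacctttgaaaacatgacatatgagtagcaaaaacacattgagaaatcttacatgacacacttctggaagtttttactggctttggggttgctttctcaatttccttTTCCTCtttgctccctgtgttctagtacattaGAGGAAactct
Clec4e, chr6:123289822-123290121, minus strand: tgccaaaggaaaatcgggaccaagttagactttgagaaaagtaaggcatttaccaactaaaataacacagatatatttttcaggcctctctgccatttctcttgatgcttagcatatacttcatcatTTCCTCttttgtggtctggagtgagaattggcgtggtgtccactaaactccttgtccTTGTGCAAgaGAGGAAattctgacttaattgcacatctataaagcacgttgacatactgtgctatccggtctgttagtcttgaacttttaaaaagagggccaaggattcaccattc
Clec12b, chr6:129385454-129385753, minus strand: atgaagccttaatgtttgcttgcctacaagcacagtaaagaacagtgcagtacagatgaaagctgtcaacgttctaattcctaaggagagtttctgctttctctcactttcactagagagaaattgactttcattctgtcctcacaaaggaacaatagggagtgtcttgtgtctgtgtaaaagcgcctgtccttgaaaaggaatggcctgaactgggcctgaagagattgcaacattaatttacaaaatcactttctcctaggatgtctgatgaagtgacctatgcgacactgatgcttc
Clec1b, chr6:129397047-129397346, plus strand: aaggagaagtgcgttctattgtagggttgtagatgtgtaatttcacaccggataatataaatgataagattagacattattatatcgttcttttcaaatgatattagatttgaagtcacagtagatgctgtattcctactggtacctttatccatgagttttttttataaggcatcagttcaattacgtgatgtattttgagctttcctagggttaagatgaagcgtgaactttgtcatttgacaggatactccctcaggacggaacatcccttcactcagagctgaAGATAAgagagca
Clec9a, chr6:129408612-129408911, plus strand: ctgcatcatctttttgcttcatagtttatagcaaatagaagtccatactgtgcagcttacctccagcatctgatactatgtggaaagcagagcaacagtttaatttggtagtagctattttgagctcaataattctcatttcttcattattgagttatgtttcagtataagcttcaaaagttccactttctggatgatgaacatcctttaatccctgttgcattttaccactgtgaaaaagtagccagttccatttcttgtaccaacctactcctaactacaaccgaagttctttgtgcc
GAGGAA occurred 3 times in the Clec4d window and 2 times in the Clec4e window, and TTGCNNAA once, in Clec4e. AGATAA occurred once in the Clec1b window, and none of the 3 motifs was found in Clec12b or Clec9a. Of the 31 genes 25 had a window in the RefSeq table. GAGGAA was in 15 of the 25 and in 28.3% of all 32851 windows, TTGCNNAA in 5 and in 10.8%, and AGATAA in 1 and in 11.2%. The counts are of genes with a match in any of their windows and the shares are of single windows, so they are not like for like. A match is a stretch of letters and does not show that a factor is bound.

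Values are FPKM, fragments scaled for gene length and library size, so genes can be compared per length. Depth ran from 27013100 fragments in RI 1 to 42622600 in RI 5. ICI 1 stood apart, with 14750 genes at 1 FPKM or more against 12682 to 13575 in the other tumours, and with neutrophil markers summing to 22584 FPKM against 109 to 702. In RI 4, 17.5% of the fragments lay in rows outside the GENCODE M21 annotation, against 0.555% to 1.06% elsewhere. Krt8 and Krt18, keratins of the tumour epithelium, were present in every tumour, and the 8 epithelial markers summed to 768 to 2009 FPKM. Results that rest on ICI 1 are given with and without it.

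Of the 31 genes 13 reached 1 FPKM in at least 4 of the 8 tumours and were tested, and 18 lay below that filter. None rose and none fell in RI against ICI at an adjusted p under 0.05 (limma, Benjamini-Hochberg over 13439 genes), while 11.1% of all tested genes rose and 6.6% fell. Voom, fitted to fragments recovered from the FPKM values, also called 0 of the 13, beside 2151 rises and 1390 falls among 13330 genes. In the limma fit 1 of the 13 reached an unadjusted p under 0.05, and the share over all genes was not counted. In RI 6 were higher and 7 lower, with a median difference of −0.11 in log2(FPKM + 1), against 0.0115 over all tested genes. Differences on this scale understate the change of genes with low FPKM. Without ICI 1 the median moved to 0.21, against 0.0219 over all tested genes, and 1 of the 13 rose (Clec16a), where 11.7% of all tested genes rose. In 2 of the 13, Clec2d and Clec4e, the 4 RI values all lay below the 4 ICI values, as in 11.2% of all tested genes, and in none did they all lie above. That holds for FPKM as deposited. As a share of each tumour's summed FPKM, the groups overlapped for Clec2d and Clec4e. The groups were apart in either direction in 27.9% of all tested genes. In a whole tumour, fewer cells of a type and less RNA per cell cannot be told apart.

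By mean over the 8 tumours the order began with Clec4n, Clec2d, Clec4d, Clec2f and Clec7a. Each gap between neighbours in that order was smaller than the larger SD of the genes compared within a group. ICI 1 was the highest of the 8 tumours in 9 of the 13 tested genes, against 24.0% of all tested genes, and in 9 of the 18 below the filter. The latter include Clec4b2, Clec4f and Clec4g, with 2, 3 and 2 fragments in ICI 1 and 0 in every other tumour. The share over all genes below the filter was not counted. In 9 genes whose next tumour held at least 0.1 FPKM it was at least 3 times that tumour. How many of all genes did so was not counted.

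**Figure D1:**
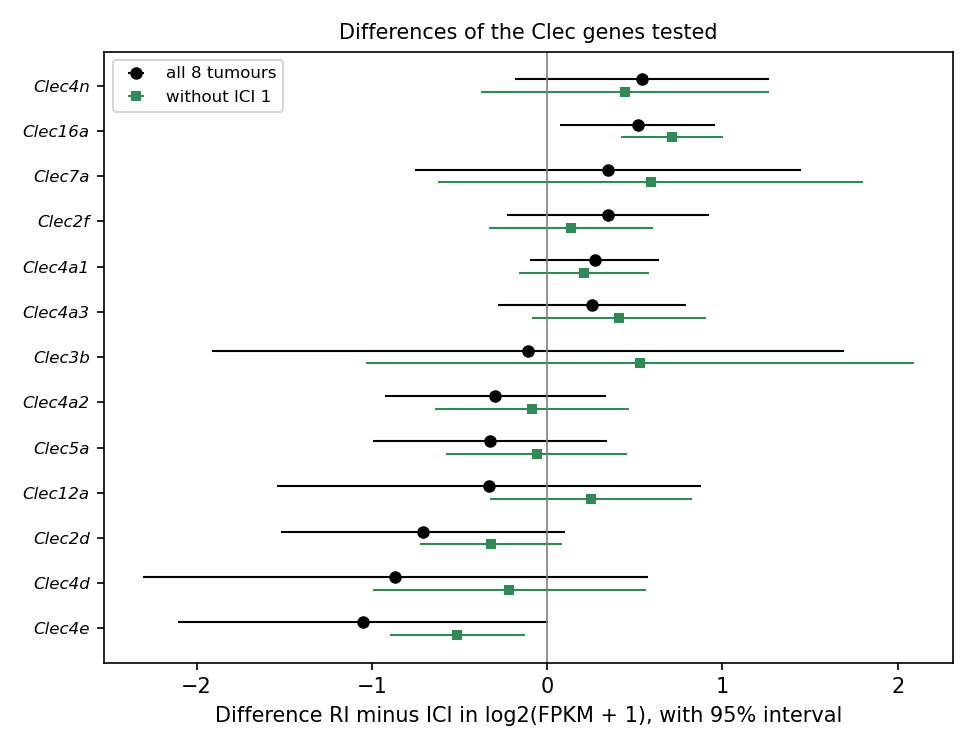
Difference RI minus ICI in log2(FPKM + 1) with 95% intervals (limma) for the 13 tested Clec genes, over all 8 tumours (circles) and without ICI 1 (squares). The interval of Clec16a lay above 0 in both fits, and the other intervals over 8 tumours held 0.

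The activating myeloid receptors did not keep 1 proportion to one another. Clec4n, which binds fungal mannans, was at 10.99, 18.5, 19.1 and 8.74 FPKM in ICI 1, 2, 3 and 4 and at 31.8, 25.1, 15.02 and 13.9 FPKM in RI 1, 2, 4 and 5. RI 1 and RI 2 were above every ICI tumour and RI 4 and RI 5 lay within the ICI range. The difference of 0.54 (SE 0.32) did not pass the test (adjusted p = 0.256, limma). Clec4e, a receptor for mycobacterial glycolipid and for a protein released from dead cells, was at 12.4, 2.28, 2.28 and 1.56 FPKM in the ICI tumours and at 0.962, 1.35, 1.20 and 0.978 FPKM in the RI tumours. Every RI value was below every ICI value in FPKM, and ICI 1 was far above the rest. The FPKM of all genes summed to 494399 in ICI 4 and 361880 in RI 2. As a share of that sum, Clec4e was higher in RI 2 than in ICI 4. The difference of −1.05 (SE 0.46, 95% interval −2.10 to 0.0028) had an adjusted p of 0.140 (limma). Without ICI 1 the ICI mean of Clec4e was 2.04 ± 0.414 FPKM (SD, n = 3), the RI mean 1.12 ± 0.188 (SD, n = 4), the difference −0.51 and the adjusted p 0.0615 (limma).

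Clec4d, the partner chain of Clec4e, was at 50.9, 9.92, 8.83 and 4.89 FPKM in the ICI tumours and at 3.70, 6.34, 5.93 and 11.4 FPKM in the RI tumours. ICI 1 was again far above all others, and the remaining ICI values overlapped the RI values. The difference was −0.87 (SE 0.63, adjusted p = 0.353, limma) over 8 tumours and −0.22 (adjusted p = 0.672, limma) without ICI 1. Summed neutrophil markers were 22584 FPKM in ICI 1, 263 to 702 in the other ICI tumours and 109 to 284 in RI. Of 9 tested, 2 fell and 0 rose with limma, where 6.6% of all tested genes fell. An unadjusted p under 0.05 was reached by 8, and voom called 0. Without ICI 1, 7 fell and 1 rose (limma), where 1114 of all 13439 tested genes fell. The part of these markers in the Clec4d and Clec4e values was not tested. Clec4d and Clec4e are neighbours on opposite strands, and their promoter windows above both hold GAGGAA.

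Within a tumour the ratio of Clec4n to Clec4e does not depend on library size. In ICI 1, 2, 3 and 4 it was 0.885, 8.10, 8.37 and 5.59, whereas RI 1, 2, 4 and 5 had ratios of 33.0, 18.6, 12.5 and 14.2. The groups did not overlap, with or without ICI 1. Clec7a over Clec4e was 0.780 to 2.53 in ICI and 2.70 to 19.3 in RI, and Clec4a1 over Clec4e was 0.366 to 3.09 and 4.79 to 7.29, so neither overlapped. Clec4n over Clec4d overlapped, at 0.216 to 2.16 in ICI and 1.21 to 8.58 in RI, and so did Clec4d over Clec4e, at 3.13 to 4.35 and 3.85 to 11.7. The ratios that did not overlap all have Clec4e below the line, whose RI values in FPKM all lay below its ICI values. They are therefore not separate results. How often ratios of other genes keep the groups apart was not counted. These ratios were chosen after the values were seen and carry no test.

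**Figure D2:**
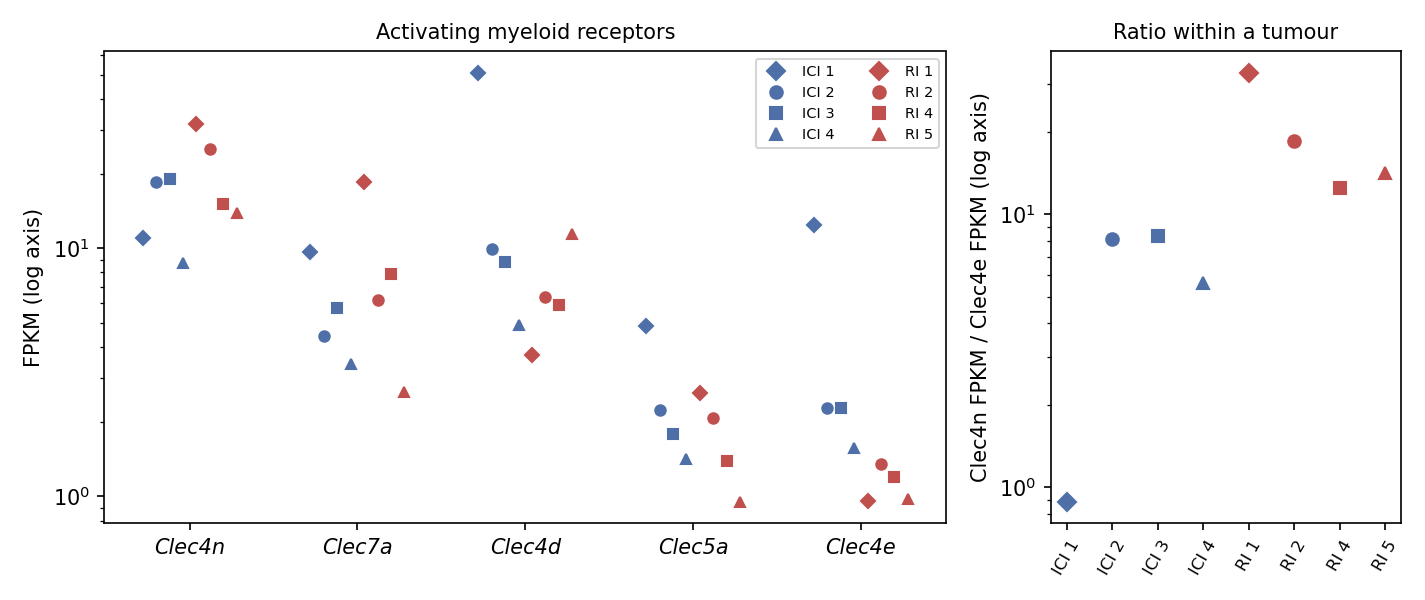
Left, FPKM (log axis) of activating myeloid Clec receptors in each tumour, ICI in blue and RI in red. Right, the ratio of Clec4n to Clec4e per tumour (log axis), which was 0.885 to 8.37 in ICI and 12.5 to 33.0 in RI.

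Clec7a, the receptor for fungal beta-glucan, was at 9.69, 4.42, 5.76 and 3.41 FPKM in the ICI tumours and at 18.5, 6.20, 7.85 and 2.64 FPKM in the RI tumours. RI 1 was the highest and RI 5 the lowest of all 8, so the RI group enclosed the ICI group. The difference was 0.35 (SE 0.48, adjusted p = 0.637, limma), and it changed sign, to −0.070, without RI 1. GENCODE M21 lists Clec7a as a polymorphic pseudogene, and whether that bears on the measured level was not tested.

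Clec5a, a receptor coupled to Tyrobp, was at 4.85, 2.23, 1.78 and 1.41 FPKM in the ICI tumours and at 2.60, 2.06, 1.39 and 0.953 FPKM in the RI tumours. The groups overlapped, and the difference of −0.33 (adjusted p = 0.459, limma) was −0.058 without ICI 1. Clec4b1, an activating receptor of dendritic cells, lay below the filter, with 18, 48, 6 and 12 fragments in ICI 1 to 4, 6 fragments in RI 1 and 0 in RI 2, RI 4 and RI 5. When genes of every level were fitted, Clec4b1 differed by −0.61 with an unadjusted p of 0.0293 and an adjusted p of 0.217 (limma). It was the sole gene of the 18 below the filter with an unadjusted p under 0.05 in that fit. The share over all genes with such a p was not counted. The adjusted p of the 18 ran from 0.217 to 0.988.

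The inhibitory receptors showed no difference past the test either. Clec4a2, an inhibitory receptor of myeloid cells, was at 6.83, 4.77, 2.82 and 2.83 FPKM in the ICI tumours and at 2.92, 5.29, 2.31 and 2.57 FPKM in the RI tumours. The ranges overlapped, and the difference of −0.30 (SE 0.28, adjusted p = 0.477, limma) was −0.086 without ICI 1. Clec12a, which binds uric acid crystals, was at 8.06, 0.973, 1.26 and 0.327 FPKM in the ICI tumours and at 1.19, 1.65, 1.38 and 0.552 FPKM in the RI tumours. ICI 1 was 4.87 times the next tumour, and the difference of −0.33 (adjusted p = 0.682, limma) turned to 0.25 (adjusted p = 0.511, limma) without it. Clec4a4, an inhibitory receptor of dendritic cells, stayed at 0 to 0.511 FPKM.

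Clec4a1 and Clec4a3 belong to the same family as Clec4a2 and lie on the same stretch of chromosome 6. Clec4a1 was at 4.54, 7.05, 5.82 and 4.18 FPKM in the ICI tumours and at 7.01, 7.22, 5.75 and 6.52 FPKM in the RI tumours. Clec4a3 was at 7.34, 6.69, 4.37 and 2.90 FPKM in the ICI tumours and at 6.95, 7.33, 5.63 and 5.23 FPKM in the RI tumours. For both genes the groups overlapped. The difference of Clec4a1 was 0.27 (SE 0.16, adjusted p = 0.260, limma) and that of Clec4a3 0.26 (SE 0.24, adjusted p = 0.468, limma). Summed macrophage markers also overlapped, at 363 to 469 FPKM in ICI and 347 to 828 in RI. Of the 10, 1 rose with limma (2 without ICI 1), where 11.1% of all tested genes rose, and voom called 2. The 1 over all tumours was Adgre1 (F4/80), from 1.22 ± 0.171 to 7.68 ± 1.37 FPKM (SD, n = 4 each, adjusted p = 0.00158, limma).

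Clec10a, a macrophage and dendritic cell receptor for galactose and N-acetylgalactosamine, lay below the filter and varied widely among the RI tumours. It was at 0.775, 0.736, 0.940 and 0.219 FPKM in the ICI tumours and at 1.49, 3.28, 0.522 and 8.79 FPKM in the RI tumours, the last value resting on 1086 fragments. RI 1, RI 2 and RI 5 were above all ICI tumours and RI 4 was within their range. With no filter the difference was 1.11 (adjusted p = 0.323, limma), and the group means were 0.667 ± 0.312 and 3.52 ± 3.69 FPKM (SD, n = 4 each).

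RI 1 and RI 5 differed in opposite directions in these myeloid genes. Clec7a was at 18.5 FPKM in RI 1 and 2.64 in RI 5, Clec4n at 31.8 and 13.9, and Clec10a at 1.49 and 8.79. Markers went both ways as well: Itgax, an integrin of dendritic cells and some macrophages, was at 14.9 FPKM in RI 1 and 1.96 in RI 5, Ccr2, the receptor of inflammatory monocytes, at 4.68 and 0.288, and Mgl2, the neighbouring copy of Clec10a, at 10.3 and 0.437. Mrc1 (CD206) was at 18.6 and 43.3 FPKM and C1qa at 225 and 354. Summed monocyte markers went against Ccr2, which is among them, at 106 FPKM in RI 1 and 199 in RI 5. Clec10a and Mrc1 placed the 4 RI tumours in the same order, from RI 5 through RI 2 and RI 1 to RI 4. This is a comparison of single tumours, made after the values were seen, with no replicate.

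**Figure D3:**
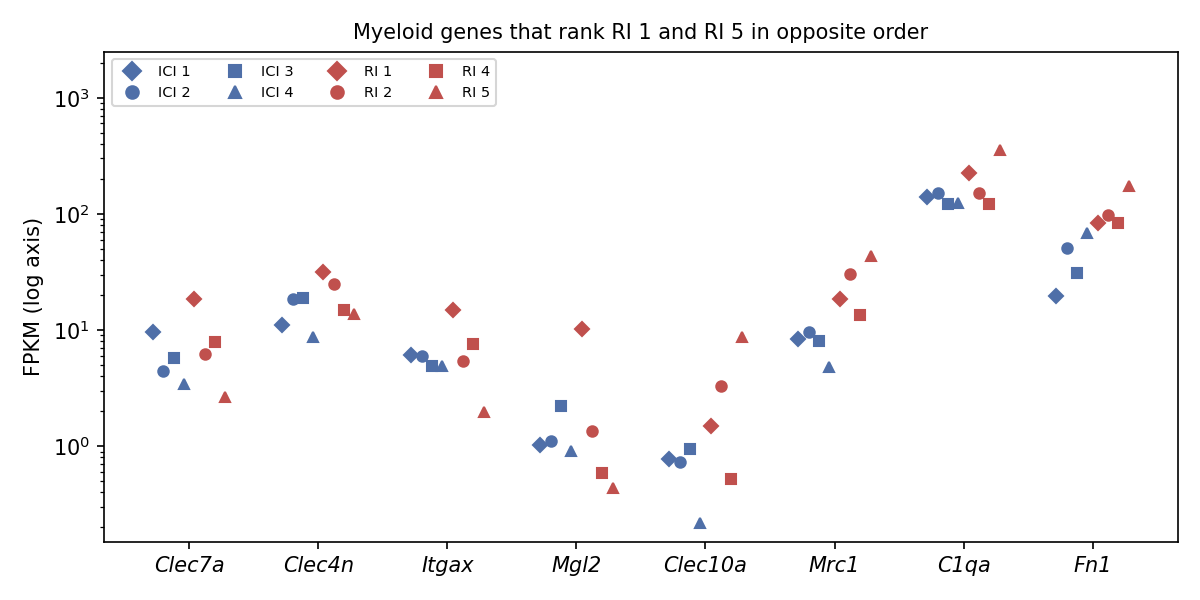
FPKM (log axis) of Clec7a, Clec4n, Clec10a and other myeloid genes in each tumour, ICI in blue and RI in red. RI 1 was above RI 5 in Clec7a (18.5 against 2.64 FPKM) and below it in Clec10a (1.49 against 8.79 FPKM).

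Clec9a, the receptor by which cross-presenting dendritic cells sense the actin of dead cells, was low. It was at 5.06, 0.655, 0.496 and 0.692 FPKM in the ICI tumours and at 0.360, 0.444, 0.351 and 0.0855 FPKM in the RI tumours, from 549, 87, 60 and 97 fragments and from 32, 47, 42 and 12. Every RI value was below every ICI value in FPKM, with or without ICI 1. The FPKM of all genes summed to 429167 in ICI 3 and 361880 in RI 2. As a share of that sum, Clec9a was higher in RI 2 than in ICI 3. Clec9a lay below the filter, and with no filter its adjusted p was 0.407 (limma). Summed dendritic cell markers overlapped, at 12.3 to 20.6 FPKM in ICI and 10.4 to 25.5 in RI, and 0 of the 5 tested passed with limma, 0 had an unadjusted p under 0.05 and voom called 0.

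In ICI 1 the genes next to Clec9a were high together. Clec12a, Clec12b, Clec1b, Clec9a, Gm43914 (an RNA within the introns of Clec9a) and Clec1a are 6 consecutive genes of the table over 109 kb (chr6:129342691-129452000), 4 on the plus strand and 2 on the minus strand. ICI 1 held 4.60 to 8.40 FPKM at each of them, while no other tumour exceeded 1.65 FPKM at Clec12a or 0.692 FPKM at the other 5. Clec12b, an inhibitory receptor, was at 8.40 FPKM in ICI 1 (448 fragments), at 0, 0.168 and 0.218 FPKM in ICI 2, 3 and 4 and at 0 in every RI tumour, where 3 fragments, the limit that a count of 0 allows per library for counting error, would be 0.0435 to 0.0686 FPKM. Clec1b, the platelet receptor for podoplanin, was at 6.496 FPKM in ICI 1 (1092 fragments) and at most 0.129 FPKM elsewhere. Clec1a, an endothelial and myeloid receptor, was at 6.09 FPKM in ICI 1 and 0.0815 to 0.404 FPKM elsewhere.

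The 3 promoter windows of this run shown above hold no searched motif in common. The fold of ICI 1 over the next tumour was 4.87 for Clec12a, 38.6 for Clec12b, 50.4 for Clec1b, 7.31 for Clec9a, 6.89 for Gm43914 and 15.1 for Clec1a. ICI 1 was also the highest tumour at several genes on either side, by smaller folds: 2.62 at Clec2d, 1.52 at 2310001H17Rik, 1.12 at Cd69 (0.714 FPKM), 2.52 at Olr1 (0.680 FPKM) and 1.18 at Gabarapl1 (21.8 FPKM). At Clec7a, next to Clec1a, RI 1 was the highest. Clec1b and Clec9a lie on the same strand and overlap by 474 bases in the annotation, and reads from that stretch cannot be assigned to 1 of them. Of the cell types these genes are known from, endothelial markers summed to 235 FPKM in ICI 1 and at most 63.8 elsewhere, platelet markers to 32.0 in ICI 1 and 37.2 to 103 elsewhere, and dendritic cell markers to 20.6 and 10.4 to 25.5. Monocyte markers summed to 349 FPKM in ICI 1 and 50.7 to 199 elsewhere, and neutrophil markers to 22584 and 109 to 702. Their part in the run was not tested.

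**Figure D4:**
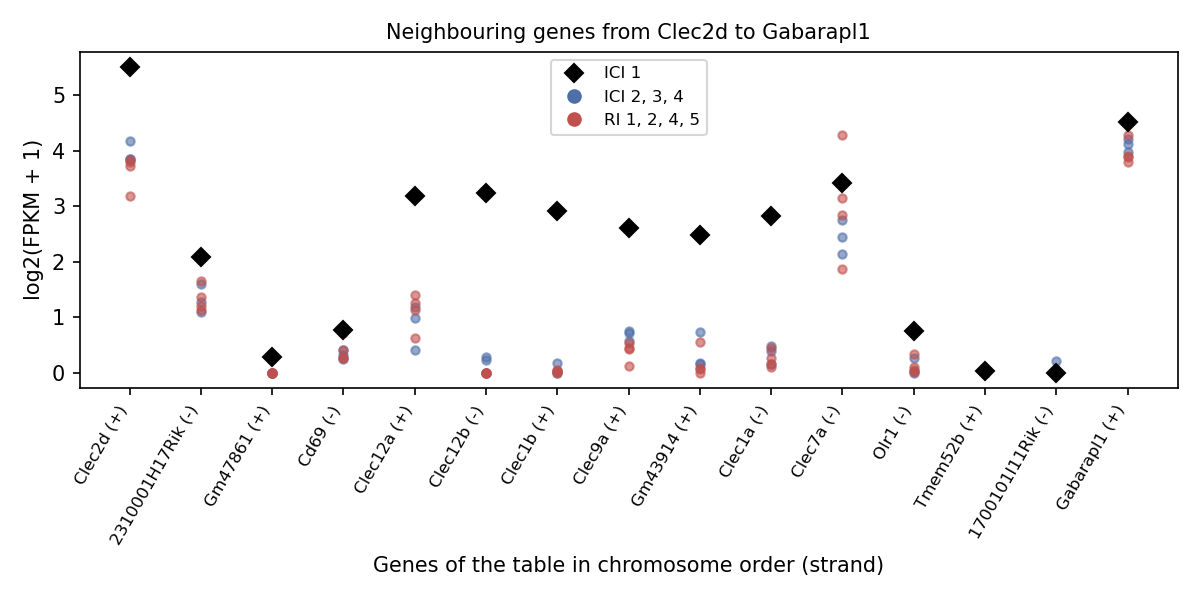
Level in log2(FPKM + 1) of consecutive genes from Clec2d to Gabarapl1 in chromosome order, with ICI 1 as black diamonds, the other ICI tumours in blue and the RI tumours in red. ICI 1 lay at 4.60 to 8.40 FPKM from Clec12a to Clec1a, above all other tumours, while at Clec7a RI 1 was the highest and at Gabarapl1 ICI 1 was 1.18 times the next tumour.

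Clec2 genes encode ligands for receptors of the NK cell complex. Clec2d, the ligand of the inhibitory receptor Klrb1b, was at 44.5, 13.4, 17.0 and 13.5 FPKM in the ICI tumours and at 12.3, 13.3, 8.14 and 12.9 FPKM in the RI tumours. In FPKM the RI values all lay below the ICI values, though the highest of RI (13.3) and the lowest of ICI (13.4) nearly met. The FPKM of all genes summed to 452895 in ICI 2 and 361880 in RI 2. As a share of that sum, Clec2d was higher in RI 2 than in ICI 2. The difference was −0.71 (SE 0.36, adjusted p = 0.188, limma), and −0.32 (adjusted p = 0.225, limma) without ICI 1. Klrb1b itself, below the filter, was at 2.398, 1.57, 0.563 and 0.833 FPKM in ICI 1 to 4, at 1.01, 0.140 and 0.123 FPKM in RI 1, 2 and 4 and at 0 in RI 5, whereas summed NK cell markers were 2.02 to 10.9 FPKM in ICI and 27.5 to 52.4 in RI.

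Clec2f, annotated as a transcribed pseudogene, was the fourth highest member by mean. It was at 5.64, 10.3, 9.87 and 12.9 FPKM in the ICI tumours and at 9.52, 10.98, 11.1 and 18.3 FPKM in the RI tumours. ICI 1 was its lowest tumour and RI 5 its highest, the groups overlapped, and the difference was 0.35 (SE 0.26, adjusted p = 0.359, limma). Clec2i reached 1.43 FPKM in ICI 1 and at most 0.370 FPKM elsewhere. Clec2e reached 0.392 FPKM in ICI 4 and was at 0 in every RI tumour, and Clec2g and Clec2h never reached 0.3 FPKM.

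Clec14a, an endothelial protein that binds Mmrn2, was at 6.59, 0.586, 0.536 and 0.910 FPKM in the ICI tumours and at 0.494, 1.77, 0.649 and 1.03 FPKM in the RI tumours. ICI 1 stood far above the others, as did the summed endothelial markers there, and the remaining values overlapped. Clec4g, known from liver sinusoidal endothelium, never reached 0.3 FPKM.

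The secreted members were low and uneven. Clec3b (tetranectin), a plasminogen-binding protein of connective tissue, was at 10.3, 0.04999, 0.879 and 2.61 FPKM in the ICI tumours and at 0.299, 6.425, 0.804 and 2.41 FPKM in the RI tumours. ICI 1 was the highest and ICI 2 the lowest of all 8, and the difference of −0.11 (SE 0.79, adjusted p = 0.936, limma) turned to 0.53 (adjusted p = 0.597, limma) without ICI 1. Dpt, a fibroblast matrix gene, was at 4.19 FPKM in ICI 1 and 0.216 in ICI 2, and among the RI tumours it was highest in RI 2, at 8.58, as was Clec3b. Clec11a, a growth factor of bone-forming cells, stayed between 0.236 and 1.03 FPKM with overlapping groups. Summed fibroblast markers were 54.2 to 93.7 FPKM in ICI and 112 to 534 in RI, and 4 of 9 tested rose (2 without ICI 1), against 11.1% of all tested genes. The values of both secreted lectins overlapped between the groups, as those of most tested genes did.

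Clec16a, a cytoplasmic protein of endolysosomes that acts in the removal of mitochondria and is no surface receptor, gave the lowest adjusted p of the 13. The gene lies at chr16:10545339-10744878. It was at 4.17, 2.16, 2.13 and 1.72 FPKM in the ICI tumours and at 3.67, 4.00, 4.00 and 3.97 FPKM in the RI tumours. The 4 RI tumours were close together and above ICI 2, 3 and 4, while ICI 1 was above them all. The difference was 0.52 (SE 0.20, 95% interval 0.072 to 0.96, unadjusted p = 0.0272, adjusted p = 0.0947, limma). Without ICI 1 the ICI mean was 2.00 ± 0.249 FPKM (SD, n = 3), the RI mean 3.91 ± 0.1598 (SD, n = 4) and the difference 0.71 (SE 0.13, 95% interval 0.42 to 1.00, adjusted p = 0.0104, limma), which passed the test.

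Of the genes below the filter not yet described, Clec2l stayed at 0 to 0.347 FPKM. Clec4b2, Clec4f (known from liver macrophages) and Clec18a never reached 0.3 FPKM in any tumour, and with Clec4g, Clec2g and Clec2h they made up 6 such genes.

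The genes that carry the receptors' signal were counted beside them. Of 24 tested Syk and Card9 pathway genes 5 rose, 0 fell and 19 did not pass (limma), with a median difference of −0.015, against 11.1% of all tested genes rising. Those that rose were Plcg2, from 16.7 ± 2.70 to 30.2 ± 8.29 FPKM (SD, n = 4 each), Vav3, from 5.58 ± 1.20 by 0.75 on the log2 scale, Map3k7, from 8.75 ± 0.348 to 12.8 ± 1.31, Traf6, from 3.06 ± 0.412 to 4.57 ± 0.497, and Nfatc2, from 2.16 ± 0.5002 to 3.87 ± 0.852. They encode a phospholipase, an exchange factor, a kinase, a ubiquitin ligase and a transcription factor that many other receptors also use. Without ICI 1 Traf6 no longer passed (adjusted p = 0.0521, limma), Lyn joined, and Card9 fell by 0.96 (adjusted p = 0.0253, limma).

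The units closest to the receptors were high in ICI 1. Card9, an adaptor of this route, was at 107 FPKM there, at 5.53 to 7.37 in the other ICI tumours and at 1.39 to 3.65 in RI. All its RI values were below all its ICI values (adjusted p = 0.142, limma), as in 11.2% of all tested genes. Syk was at 41.7 FPKM in ICI 1 and 2.30 to 3.61 elsewhere. The chain Fcer1g averaged 93.2 ± 68.9 FPKM in ICI against 51.9 ± 11.9 in RI, and Tyrobp 110.3 ± 101 against 49.1 ± 13.1 (SD, n = 4 each), with overlapping groups for both. Without ICI 1 the ICI means were 59.0 ± 9.61 FPKM for Fcer1g and 59.8 ± 8.50 for Tyrobp (SD, n = 3).

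Of 8 inhibitory signalling genes 2 rose and 0 fell, with a median of 0.088, beside the same 11.1% and 6.6% of all tested genes, and a count this small says little about the list. Ptpn11, the phosphatase SHP-2, rose from 11.7 ± 2.02 to 24.9 ± 1.54 FPKM (SD, n = 4 each, adjusted p = 0.0115, limma), and Cbl, a ubiquitin ligase, from 4.98 ± 1.34 to 8.24 ± 0.653 (adjusted p = 0.0289, limma). Of 12 tested cytokine and target genes none passed with limma and 1 had an unadjusted p under 0.05. Voom, with 2151 rises and 1390 falls over 13330 genes, called 1 of the 12. That gene was Il1b, at 34.3, 25.4, 26.9 and 10.4 FPKM in ICI and 12.0, 10.8, 6.21 and 2.45 FPKM in RI (−1.57, adjusted p = 0.0536, limma), with RI 1 and RI 2 above ICI 4. Of 8 genes for binding partners 2 could be tested, Pdpn (0.090, adjusted p = 0.849, limma) and Mmrn2 (0.67, adjusted p = 0.181, limma).

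Some C-type lectin genes with other names passed the test. Of 13 tested, 3 rose and 0 fell, with a median of 0.30, where 11.1% of all tested genes rose and 6.6% fell. Mrc1, the macrophage mannose receptor, rose from 7.68 ± 2.00 to 26.5 ± 13.3 FPKM (SD, n = 4 each, 1.57, adjusted p = 0.0207, limma). Ly75 (DEC-205), an endocytic receptor, rose from 7.50 ± 2.43 to 16.4 ± 2.49 FPKM (adjusted p = 0.0166, limma), and Klrg1, an inhibitory receptor of NK and T cells, from 0.313 ± 0.260 to 1.80 ± 0.361 FPKM (adjusted p = 0.0138, limma).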

How the data were processed

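RNA sequencing values of 8 tumours were used, grouped by the sample titles. The authors deposited FPKM in 1 table. HISAT2 and GRCm38 (mm10) are named per the submitters' processing notes, with no version. The counting program, annotation release and strand setting were not given in the sources used here. Coordinates and union exon lengths came from GENCODE M21, matched by identifier for 31407 of 32098 rows. Fragments were recovered as whole multiples of the smallest step of FPKM times exon length, and 98.6% to 98.8% of the values of up to 50 fragments lay within 0.05 of a whole number. Every pair of libraries differed by more than counting noise (lowest chi-square per gene 37.3).

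The 13439 genes that reached 1 FPKM in 4 or more tumours were fitted on log2(FPKM + 1) with limma 3.58.1 in R 4.3.3 (trend, robust, two-sided, Benjamini-Hochberg, threshold 0.05), which was tested on simulated data. Settings tried were other filters, pseudocounts of 0.1 and 5, TPM, upper-quartile scaling, median centring, voom, removal of the length and GC trend, a replicate block and leaving out libraries. The Clec genes, gene lists and settings were chosen with earlier results of these data known. All Clec genes could be named, singly below the filter from 0.3 FPKM; from signalling lists, called genes and up to 4 of the highest; from marker lists, sums and up to 3 genes. Lyn, Card9, Il1b, Klrb1b and the genes compared in RI 1 and RI 5 were named after their values were seen. One gene of the signalling lists is not reported here.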

Additional observations from a re-analysis of the deposited data

Results flagged for a closer look

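In 13 cases 1 tumour lay far from the other 3 of its group, among 50 groups of 4 for 25 Clec genes. The RI groups of Clec12b and Clec2e held only values of 0 and could not be flagged. Chance alone sets apart about 1 in 20 groups of normally spread values. That rate does not hold for groups with values of 0, such as Clec4b1 in RI, where 3 of the 4 are 0. The share of such cases over all genes was not counted, and ICI 1 was the highest tumour in 24.0% of all tested genes. Clec12b and Clec1b reached 0.3 FPKM, the level for entry here, only in ICI 1. In 10 of the 13 the tumour was ICI 1, and it was high each time: Clec2d at 44.5 FPKM, Clec4d at 50.9, Clec4e at 12.4, Clec12a at 8.06, Clec14a at 6.59, Clec12b at 8.40, Clec9a at 5.06, Clec1a at 6.09, Clec1b at 6.496 and Clec2i at 1.43. Of these, Clec12a, Clec12b, Clec1b, Clec9a and Clec1a are the neighbours on chromosome 6 described above. In the RI group, RI 1 was low for Clec16a (3.67 FPKM) and high for Clec4b1 (0.283 FPKM, 6 fragments), and RI 2 was high for Clec4a4 (0.240 FPKM).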

How the results depend on the processing

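Over 254 pairs of a tested Clec gene and another setting, 238 kept direction and side of the threshold, 3 newly passed it and 13 changed sign. The count of rises, 0 with limma as reported, became 1 without ICI 1 (Clec16a), without ICI 1 and RI 4 together (1, Clec16a, 0.70, adjusted p = 0.0136, limma) and with the replicate block and the length and GC trend removed (1, Clec4n, 1.07, adjusted p = 0.0491, limma). Over all genes these settings called 1579 and 2044 rises of 13439 and 316 of 13320. In the other settings that held Clec16a its adjusted p ran from 0.0617 (voom) to 0.441 (limma, the block with the length and GC trend removed). Leaving out 1 tumour gave 0 to 1 rises and 0 falls, and falls were 0 in every setting. Clec7a changed sign without RI 1 (−0.070), Clec4a2 without ICI 1 and RI 4 (0.020), and Clec12a without ICI 1 (0.25) and without both (0.20). Clec3b did so with a pseudocount of 0.1 (0.13), TPM (0.041), voom (0.61), the length and GC trend removed (0.37), that with the block (0.065), without ICI 1 (0.53), ICI 1 and RI 4 (0.74), RI 1 (0.26) and RI 4 (0.10). Leaving out 1 tumour took Clec3b from −0.61 to 0.53 and Clec12a from −0.67 to 0.25. The cause was not tested. A mean of at least 5 FPKM left 7 of the 13. The replicate block alone called 0 Clec genes, and over all genes 16 rises and 6 falls against 1486 and 887. Tumours of the same number did not deviate together (correlations −0.0923, −0.120 and −0.124), so the numbers were not taken as pairs. Over all genes median centring gave 1500 rises and 1623 falls, upper-quartile scaling 1774 and 1546, and TPM moved the median difference from 0.0115 to 0.11. At these depths 0 fragments of a short gene allow a low level, and FPKM under 0.3 rest on few fragments.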
